A study of Mus musculus with 81 samples.

Results

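Integrins are the receptors with which cells hold the extracellular matrix, and ADAMs are membrane-bound proteases that cut the outer part off other surface proteins. The 9 genes described here, of 55536 in the largest count table, are 6 integrin chains (Itgav, Itga5, Itga6, Itgb1, Itgb5 and Itgb8) and 3 ADAM proteases (Adam8, Adam10 and Adam17) of glia, vessels and neurons. They were chosen by name from these gene families, with no cutoff on a measured value but with earlier results of these data known, and all 9 were found in each of the 3 count tables and passed the filter on low counts in every comparison. RNA and the histone variants mH2A1 and mH2A2 (macroH2A1 and macroH2A2, encoded by H2afy and H2afy2) were measured in 81 samples of area CA1 of the hippocampus of male adult C57BL/6J mice.

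RNA came from 26 mice. The depletion experiment held 3 mice with a scrambled shRNA (shScr), 3 with an shRNA against H2afy (shH2afy) and 3 with one against H2afy2 (shH2afy2), all given by AAV into dorsal CA1. The AAV expressed the shRNA from a U6 promoter and GFP from a CMV promoter, and neither promoter is restricted to neurons. In a separate training experiment, 12 mice carried shScr or shH2afy and were left in the home cage (untrained) or taken 1 h after contextual fear conditioning with foot shocks (trained), 3 mice per group. Another 5 mice without virus (intact) comprised 3 untrained and 2 trained mice, also at 1 h. Domains of mH2A1 or mH2A2 were called in 30 ChIP-seq libraries of mice for which no virus is named, taken 30 min, 1 h or 6 h after training or untrained, with 25 input libraries.

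Each integrin receptor is a pair of an alpha and a beta chain. Itgb1 encodes the beta chain shared by most matrix receptors. With the alpha chain of Itga5 it binds fibronectin, and with that of Itga6 it binds laminin of the vascular basement membrane. The alpha chain of Itgav pairs with those of Itgb1, Itgb5 and Itgb8 to bind vitronectin, osteopontin or latent TGF-beta, and the pair with Itgb8 releases active TGF-beta to microglia. Adam10 is the main alpha-secretase of the amyloid precursor protein in neurons and starts Notch signalling. Adam17 frees TNF and ligands of the EGF receptor and needs the inactive rhomboids of Rhbdf1 and Rhbdf2 to reach the surface. Adam8 is found mainly in leukocytes and in activated microglia.

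On mm10 with the GENCODE M21 annotation, each of the 9 is a protein-coding gene. Itgav lies at chr2:83724397-83806916 and Itga6 at chr2:71745616-71858416, both on the plus strand. Itga5 lies at chr15:103344286-103366763 on the minus strand. The beta chain genes lie at chr8:128685654-128733200 (Itgb1, plus strand), chr16:33829665-33949338 (Itgb5, plus strand) and chr12:119158022-119238802 (Itgb8, minus strand). Adam8 lies at chr7:139978932-139992562 and Adam17 at chr12:21323509-21373632, both on the minus strand, and Adam10 at chr9:70678997-70780229 on the plus strand. Itgav shares 22084 bases with Gm13684 on the opposite strand and Adam17 shares 311 bases with Iah1 on the opposite strand, so where counting did not use strand their reads cannot be told apart. Itga6 shares 9877 bases with Gm13662 and 2694 bases with Gm13663 on its own strand, where strand cannot separate the reads. It also shares 2088 bases with Gm17250 on the opposite strand.

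The sequences just before the starts are shown for 4 genes. Itgb5 and Adam8 rose with shH2afy and carried domains, and Itgav and Itgb1 rose with few domains or none. Each run is the 250 bases before the RefSeq start (GRCm38.p6), 5′ to 3′ on the strand of the gene, with CG dinucleotides in capitals because CG-rich starts are CpG islands. They lie at chr16:33829415-33829664 (Itgb5), chr7:139992563-139992812 (Adam8), chr2:83724147-83724396 (Itgav) and chr8:128685404-128685653 (Itgb1).
Itgb5: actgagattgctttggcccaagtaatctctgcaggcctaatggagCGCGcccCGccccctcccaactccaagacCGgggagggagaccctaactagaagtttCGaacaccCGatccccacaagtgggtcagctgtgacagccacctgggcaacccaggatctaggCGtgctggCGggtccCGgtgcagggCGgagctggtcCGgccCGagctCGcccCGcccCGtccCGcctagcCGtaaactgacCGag
Adam8: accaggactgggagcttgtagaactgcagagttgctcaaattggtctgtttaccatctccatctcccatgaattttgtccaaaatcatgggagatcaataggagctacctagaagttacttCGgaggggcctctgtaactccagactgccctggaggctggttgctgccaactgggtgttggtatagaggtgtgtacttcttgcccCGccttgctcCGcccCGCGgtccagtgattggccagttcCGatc
Itgav: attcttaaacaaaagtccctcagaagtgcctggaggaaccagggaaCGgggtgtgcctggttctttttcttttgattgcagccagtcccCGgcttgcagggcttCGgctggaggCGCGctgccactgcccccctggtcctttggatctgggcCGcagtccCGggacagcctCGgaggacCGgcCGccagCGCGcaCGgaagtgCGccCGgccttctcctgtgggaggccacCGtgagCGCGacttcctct
Itgb1: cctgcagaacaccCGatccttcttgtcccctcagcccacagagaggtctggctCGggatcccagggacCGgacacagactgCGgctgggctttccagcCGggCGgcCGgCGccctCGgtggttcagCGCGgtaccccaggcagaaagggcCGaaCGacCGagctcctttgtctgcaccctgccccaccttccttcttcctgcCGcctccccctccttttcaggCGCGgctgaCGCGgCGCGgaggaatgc
The window of Adam8 held 6 CG dinucleotides at a GC content of 52.8%, close to the median of 52.4% over 32851 RefSeq windows of the same length. Those of Itgav and Itgb5 held 18 each and that of Itgb1 held 21, at a GC content of 64.4%, 65.2% and 68.0%. RefSeq windows were found for 8 of the 9 genes, all but Itga6, and Adam10 was the richest of them, with 29 CG dinucleotides at 74.0%. The GC box (GGGCGG, either strand) was found 3 times in the window of Itgb5, once in those of Adam8 and Itgb1, and not in that of Itgav, while 32.7% of all windows held it. The AP-1 motif TGANTCA, read on both strands, was in 0 of the 8 windows (6.75% of all windows). The ETS motif CCGGAAG was in that of Adam17 alone (6.91% of all windows).

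Counts assigned to genes ran from 9.95 to 18.8 M per library in the depletion experiment, from 81.4 to 92.2 M in the training experiment and from 48.8 to 58.7 M in intact mice. The targeted genes were read first. In the depletion experiment H2afy had 60.8, 58.2 and 52.8 CPM (the count scaled to the library's total over genes) with shScr and 43.1, 45.0 and 39.2 CPM with shH2afy, a log2 fold change of -0.37 ± 0.10 (SE, edgeR adjusted p = 0.0310). H2afy2 had 18.2, 18.7 and 19.0 CPM with shScr and 13.2, 8.05 and 7.57 CPM with shH2afy2, a log2 fold change of -0.95 ± 0.22 (adjusted p = 0.0907). In the training experiment H2afy was not lower in the libraries labelled shH2afy, with 87.1, 88.8 and 87.9 CPM in untrained mice against 82.2, 81.3 and 78.3 CPM with shScr, and with 99.5, 94.7 and 88.5 CPM in trained mice against 86.7, 85.3 and 80.4 CPM. Directions drawn from that experiment below therefore belong to the libraries as labelled. Within each experiment the labels give every RNA library a mouse of its own, so p-values measure the spread between mice of 1 experiment. The labels use 10 of the 12 mouse numbers of the training experiment again for the ChIP-seq mice at 6 h, and no comparison was made across the 2 experiments.

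Does the RNA of these receptors and proteases differ between shH2afy and shScr mice of the depletion experiment? With shH2afy, 7 of the 9 genes rose past an adjusted p of 0.01 and a 2-fold change (edgeR), where 10.5% of the 16179 genes tested rose. These were Itgav, Itga5, Itga6, Itgb1, Itgb5, Adam8 and Adam17, by 2.20-fold to 10.0-fold. The median log2 fold change of the 9 was 1.63, and that of all genes tested was 0.01. In 8 of the 9 genes every shH2afy mouse lay above every shScr mouse, as did 24.1% of all genes. Adam10 was the exception.

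Among the alpha chains, Itgav measured 52.9, 81.0 and 83.7 CPM in the shScr mice and 172, 143 and 142 CPM in the shH2afy mice. The groups did not overlap, and the log2 fold change was 1.14 ± 0.19 (SE, adjusted p = 0.0045). Itga5, the fibronectin receptor chain, had 1.04, 1.93 and 6.28 CPM with shScr and 28.7, 33.7 and 20.7 CPM with shH2afy. It was the scarcest of the 6 integrin chains with shScr and had the largest fold change of the 9 genes, 3.32 ± 0.56 on the log2 scale (adjusted p = 0.0044). Itga6, the laminin receptor chain, measured 27.2, 23.2 and 25.7 CPM with shScr against 80.7, 64.9 and 79.4 CPM with shH2afy. Its 3 control mice lay close together and its log2 fold change was 1.63 ± 0.12 (adjusted p = 0.00023).

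Of the beta chains, Itgb5 rose from 53.7, 42.4 and 47.7 CPM with shScr to 214, 228 and 143 CPM with shH2afy, a log2 fold change of 2.09 ± 0.20 (adjusted p = 0.00043). The lowest shH2afy mouse, replicate 3, was far above the highest shScr mouse. Itgb1 measured 71.8, 59.4 and 64.0 CPM with shScr and 172, 178 and 115 CPM with shH2afy, with replicate 3 again the lowest of its group. Its log2 fold change was 1.32 ± 0.18 (adjusted p = 0.0020). Itgb8, the partner of Itgav in TGF-beta activation, had 59.2, 72.8 and 73.0 CPM with shScr and 91.3, 80.9 and 112 CPM with shH2afy. The groups did not overlap, and the log2 fold change of 0.53 ± 0.15 (adjusted p = 0.031) did not pass either threshold.

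Adam17 had 15.6, 12.2 and 15.8 CPM with shScr and 55.2, 59.7 and 40.0 CPM with shH2afy, a log2 fold change of 1.90 ± 0.19 (adjusted p = 0.00051). Its 3 shH2afy mice lay well above the controls. Adam8 was scarce with shScr, at 1.31, 2.80 and 1.17 CPM, and reached 9.25, 9.07 and 5.67 CPM with shH2afy. Its log2 fold change was 2.21 ± 0.38 (adjusted p = 0.0045). Adam10, the neuronal alpha-secretase, had 122, 110 and 107 CPM with shScr against 125, 129 and 108 CPM with shH2afy. The groups overlapped and the log2 fold change was 0.16 ± 0.11 (adjusted p = 0.32).

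**Figure D1:**
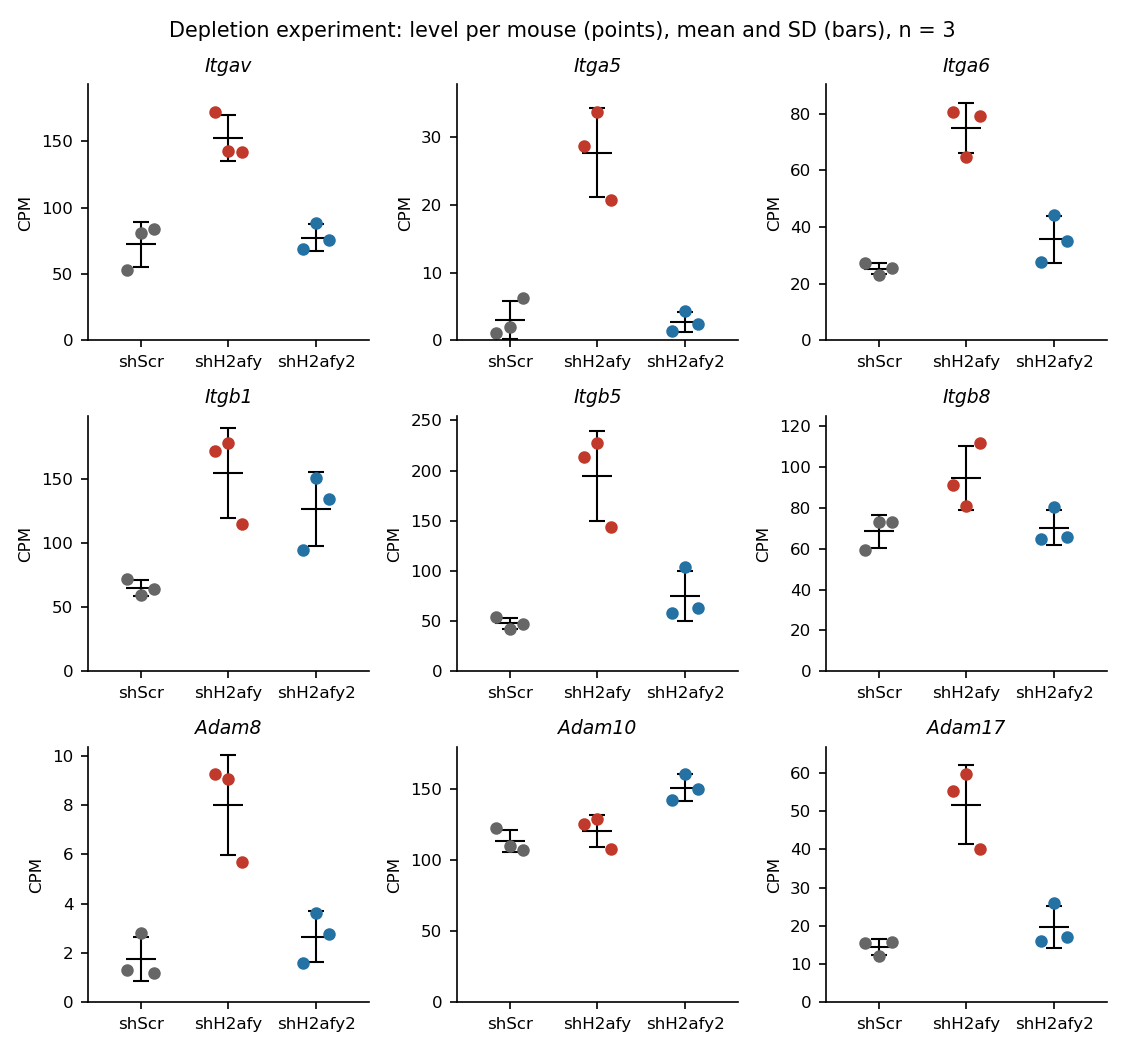
Level of each gene in the depletion experiment in CPM (y axis, from 0) for the 3 groups (x axis). Points are mice, horizontal lines with bars are the mean and SD of 3 mice. The shH2afy mice lie above all shScr mice in every panel except that of Adam10.

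The calls of Itga6, Itgb5 and Adam17 held under each of 11 alternatives. Those of the other 4 were lost when single libraries were left out. The count of 7 became 3 without shH2afy replicate 1 and 4 without shH2afy replicate 2 or any 1 of the 3 shScr libraries, all of which leave 1 group with 2 mice. The study named Itgav and Adam8 on these depletion libraries, so their direction here is not independent evidence.

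Levels were compared between genes per length of exon (RPKM, the CPM of a gene per kilobase of exon). With shScr the order was Adam10 (23.0 ± 1.6 RPKM, SD, n = 3), Itgb1 (15.9 ± 1.5), Itgb5 (13.5 ± 1.6), Itgav (6.75 ± 1.59), Itgb8 (6.18 ± 0.72), Itga6 (2.81 ± 0.22), Adam17 (2.03 ± 0.28), Itga5 (0.625 ± 0.569) and Adam8 (0.380 ± 0.195). The ranges of Itgb1 and Itgb5 overlapped, as did those of Itgav and Itgb8 and those of Itga5 and Adam8. With shH2afy, Itgb5 stood first at 54.8 ± 12.7 RPKM and Itgb1 second at 37.9 ± 8.6, with overlapping ranges, followed by Adam10 at 24.5 ± 2.3. Adam8 remained last at 1.72 ± 0.44 RPKM.

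Markers of several cell types moved with the same libraries. All 6 microglia markers, all 6 markers of macrophages and monocytes and all 6 of reactive astrocytes rose with shH2afy. Of all genes tested, 10.5% rose and 11.7% were called in either direction. Summed over its list, microglial RNA was 251 to 379 CPM with shScr and 1183 to 1793 CPM with shH2afy, macrophage and monocyte RNA 10.0 to 27.7 and 194 to 887 CPM, and reactive astrocyte RNA 323 to 731 and 4661 to 5921 CPM. Of neutrophil markers, 1 of 5 passed the filter and rose, and 1 of 5 was at 0 in at least 1 shH2afy library. The 6 endothelial markers summed to 102 to 146 CPM with shScr and 126 to 148 CPM with shH2afy, with 0 called by edgeR, 3 at an unadjusted p below 0.05 (43.9% of all genes) and 0 called by DESeq2. The 4 markers of CA1 pyramidal neurons summed to 796 to 1805 CPM with shScr and 373 to 526 CPM with shH2afy, and 1 of them fell by edgeR and 3 by DESeq2. Of 6 markers of inhibitory neurons 3 fell, and their sum was 979 to 1084 CPM with shScr and 491 to 607 CPM with shH2afy. Markers of B and plasma cells, of which 1 of 4 passed the filter and rose, summed to 0.373 to 1.28 CPM with shScr and to 1.66, 567 and 835 CPM in the 3 shH2afy mice. Those of T and NK cells summed to 0.622 to 2.93 CPM with shScr and 4.36 to 47.1 CPM with shH2afy. The sums for astrocytes, oligodendrocytes, mural cells and fibroblasts, and dentate granule neurons had overlapping ranges in shScr and shH2afy mice. In such bulk tissue, more cells of a type and more RNA per cell cannot be told apart, and the part of these cell types in the rise of the integrins and ADAMs was not tested.

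With shH2afy2, none of the 9 genes passed the thresholds by edgeR or by DESeq2. Of the 15609 genes tested, 0% did so by edgeR, and DESeq2 called 127 genes in all. At an unadjusted p below 0.05, 4 of the 9 were higher, as were 10.5% of the genes tested. Itgb1 measured 94.4, 151 and 135 CPM with shH2afy2, each above its 3 shScr mice, with a log2 fold change of 0.97 ± 0.17 (edgeR adjusted p = 0.0739). Adam10 measured 142, 160 and 150 CPM, also without overlap, with a log2 fold change of 0.42 ± 0.09 (adjusted p = 0.0838). For both genes DESeq2 gave an adjusted p under 0.01, with fold changes under the threshold of 2. Itgb5 at 58.6, 104 and 63.2 CPM and Itga6 at 27.9, 44.2 and 35.0 CPM had log2 fold changes of 0.66 ± 0.22 and 0.50 ± 0.17. Replicate 2, the highest of its group in all 9 genes, also had the highest sums of microglial (595 CPM) and macrophage and monocyte markers (136 CPM) of the 3, and their part in its levels was not tested. Itgav (68.7, 88.4 and 75.6 CPM), Itga5 (1.46, 4.37 and 2.49 CPM), Itgb8 (64.9, 80.2 and 65.5 CPM) and Adam8 (1.59, 3.63 and 2.77 CPM) overlapped their controls. Adam17 had 16.1, 26.1 and 17.1 CPM, each above its 3 shScr mice (log2 fold change 0.45 ± 0.21, edgeR adjusted p = 0.28). Every shH2afy2 mouse lay above every shScr mouse in 5 of the 9 genes (Itga6, Itgb1, Itgb5, Adam10 and Adam17), as in 13.3% of all genes.

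The shH2afy and shH2afy2 mice were also compared directly, since both depletions share the 3 shScr libraries. In that comparison 4 of the 9 genes were higher with shH2afy past both thresholds, where 7.96% of the 16294 genes tested were. They were Itga5 (log2 fold change 3.30 ± 0.38, adjusted p = 0.0021), Itgb5 (1.37 ± 0.26, 0.0076), Adam17 (1.38 ± 0.23, 0.0048) and Itga6 (1.07 ± 0.18, 0.0050). Itgav differed by 0.98 ± 0.13 (adjusted p = 0.0030), just under the fold threshold, and Adam8 by 1.57 ± 0.34 (adjusted p = 0.0111), just over that of p. Itgb1 differed by 0.29 ± 0.22 (adjusted p = 0.35) and its mice overlapped. Adam10 had the opposite sign, with each shH2afy mouse below each shH2afy2 mouse, and did not pass (-0.32 ± 0.11, adjusted p = 0.0548). Itgb8 differed by 0.43 ± 0.15 (adjusted p = 0.0578). The count of 4 became 0 without shH2afy replicate 1 or shH2afy2 replicate 3, 1 without shH2afy2 replicate 1 and 2 without shH2afy replicate 2.

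The rest of the family and of the pathway was counted with the same thresholds in shH2afy against shScr of the depletion experiment. There 10.5% of all genes tested rose and 11.7% were called in either direction. Of 15 other alpha chains, 14 were tested and 6 rose. Among the smallest by adjusted p was the leukocyte chain Itgam, at 84.3 CPM on average against 8.32 CPM with shScr (log2 fold change 3.41 ± 0.22). The others named were Itga2, Itgae and Itgax, at log2 fold changes of 4.07, 5.42 and 6.27. Those 3 had shScr means of at most 1.00 CPM. Of 6 other beta chains, 4 were tested and 3 rose: the leukocyte chain Itgb2 from 5.94 to 107 CPM (4.24 ± 0.40), Itgb7 (4.26 ± 0.64) and Itgb3, a further partner of Itgav (1.58 ± 0.22). Of 9 other ADAMs, 8 were tested, none rose, and Adam22, a synaptic ADAM without protease activity that binds Lgi1, fell from 222 to 100.1 CPM (-1.08 ± 0.20). The call of Adam22 was lost in 6 of 11 alternatives, those of the replicate block and of leaving out shH2afy replicate 1 or 2 or any shScr library. That of Itgb7 was lost in 4 and that of Itgb3 in 3.

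Among 14 partners, activating proteases and inhibitors of the ADAMs, 4 rose, beside 10.5% of all genes tested. Rhbdf1 and Rhbdf2, the carriers of Adam17, went from 7.01 to 41.9 CPM (log2 fold change 2.64 ± 0.16) and from 0.873 to 10.5 CPM (3.67 ± 0.37). Furin, which removes the prodomain of ADAMs, rose by 1.11 ± 0.15, a call lost in 2 of 11 alternatives. The inhibitor Timp1 averaged 15.8 CPM with shH2afy and was at 0 to 0.138 CPM with shScr. Of 20 integrin ligands, 7 rose and 1 fell. Thrombospondin-1 (Thbs1, 4.29 ± 0.24), osteopontin (Spp1, 3.75 ± 0.22), tenascin C (Tnc, 3.12 ± 0.25) and Nrros, which tethers latent TGF-beta on microglia (2.39 ± 0.27), had the smallest adjusted p.

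Beside 10.5% of all genes tested, 4 of 15 adaptors on the inner side of integrins rose. They were talin-1 (Tln1, 1.68 ± 0.15), the leukocyte kindlin Fermt3 (3.40 ± 0.34), Parvg (1.77 ± 0.19) and Lims1 (1.04 ± 0.12), on the log2 scale, and the call of Lims1 was lost in 3 of 11 alternatives. Of 21 substrates of ADAM10 or ADAM17, 11 rose and none fell. Those with the smallest adjusted p were the hyaluronan receptor Cd44 (4.73 ± 0.31), the interleukin-6 receptor Il6ra (1.85 ± 0.14), the TNF receptor Tnfrsf1a (3.12 ± 0.27) and the EGF receptor ligand Hbegf (2.35 ± 0.20). The list medians ran from 0.28 for the adaptors to 2.91 for the other beta chains, beside 0.01 for all genes. With shH2afy2, edgeR called 0 genes in each of these 7 lists and 0 over all genes. DESeq2 called 1 of the other ADAMs and 1 of the ligands, of 127 genes in all. In each list 1 to 6 genes had an unadjusted edgeR p below 0.05, as had 20.7% of all genes tested. Among them were 2 of 15 adaptors, 3 of 13 partners and inhibitors and 5 of 20 ligands.

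The training experiment measured shH2afy against shScr again, in other mice, at the threshold of an adjusted p of 0.05 with a 1.2-fold change. The same 7 genes were called higher in the libraries labelled shH2afy and Itgb8 and Adam10 were not, in untrained and in trained mice alike. These calls and those of the depletion experiment rest on unlike thresholds. At the looser one Itgb8 would also have passed in the depletion experiment (edgeR adjusted p = 0.031, 1.45-fold). Itga6, Itgb1 and Adam8 stayed under 2-fold in untrained mice (1.71, 1.55 and 1.96-fold). In trained mice they did so too (1.65, 1.42 and 1.71-fold), as did Adam17 (1.79-fold). Of all genes, 25.2% were higher in untrained mice and 22.8% in trained mice. In both, every shH2afy mouse lay above every shScr mouse for 7 of the 9 genes, beside 30.5% and 30.1% of all genes. The 7 calls held under all 11 alternatives in either set of mice.

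Itga5 again had the largest difference, with 2.47, 2.63 and 2.33 CPM in untrained shScr mice and 16.7, 26.3 and 24.0 CPM in those labelled shH2afy, a log2 fold change of 3.17 ± 0.18. Itgb5 measured 46.7, 57.1 and 52.1 CPM against 137, 139 and 184 CPM (1.56 ± 0.14). Itgav measured 65.4, 64.9 and 63.7 CPM against 122, 150 and 151 CPM (1.13 ± 0.09). In none of the 3 did the groups come near each other. Adam17 had 25.1, 26.0 and 24.3 CPM against 42.6, 54.4 and 59.9 CPM (1.06 ± 0.12) and Adam8 6.69, 6.05 and 5.66 CPM against 10.9, 10.7 and 14.4 CPM (0.97 ± 0.14). Itga6 differed by 0.77 ± 0.13 and Itgb1 by 0.63 ± 0.11. Itgb8 (0.18 ± 0.09, adjusted p = 0.13) and Adam10 (0.07 ± 0.08, adjusted p = 0.51) had overlapping groups. The adjusted p of the 7 was at most 0.0035 in untrained mice.

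In trained mice the log2 fold changes over shScr were 2.72 ± 0.20 for Itga5, 1.28 ± 0.15 for Itgb5, 1.02 ± 0.06 for Itgav, 0.84 ± 0.08 for Adam17, 0.78 ± 0.13 for Adam8, 0.73 ± 0.08 for Itga6 and 0.50 ± 0.07 for Itgb1, with adjusted p of at most 0.0045. Itgb8 and Adam10 differed by 0.08 ± 0.09 and 0.07 ± 0.06. Markers moved here too. Summed microglial RNA was 216 to 258 CPM in untrained shScr mice and 684 to 997 CPM in those labelled shH2afy, macrophage and monocyte RNA 20.0 to 22.7 and 172 to 369 CPM, reactive astrocyte RNA 290.3 to 384 and 1584 to 1862 CPM, and RNA of CA1 pyramidal neurons 306 to 437 and 91.3 to 214 CPM. All 6 markers of each of the first 3 lists rose, beside 25.2% of all genes, and 43.7% of all genes were called in either direction. Inhibitory neuron markers summed to 260 to 319 and 206 to 216 CPM, with 4 of 6 lower, and markers of mural cells and fibroblasts to 84.2 to 102 and 119 to 134 CPM, with 4 of 6 higher. Of the 6 endothelial markers 4 rose, from a sum of 151 to 168 CPM to one of 188 to 206 CPM. Their part in the differences was not tested.

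**Figure D2:**
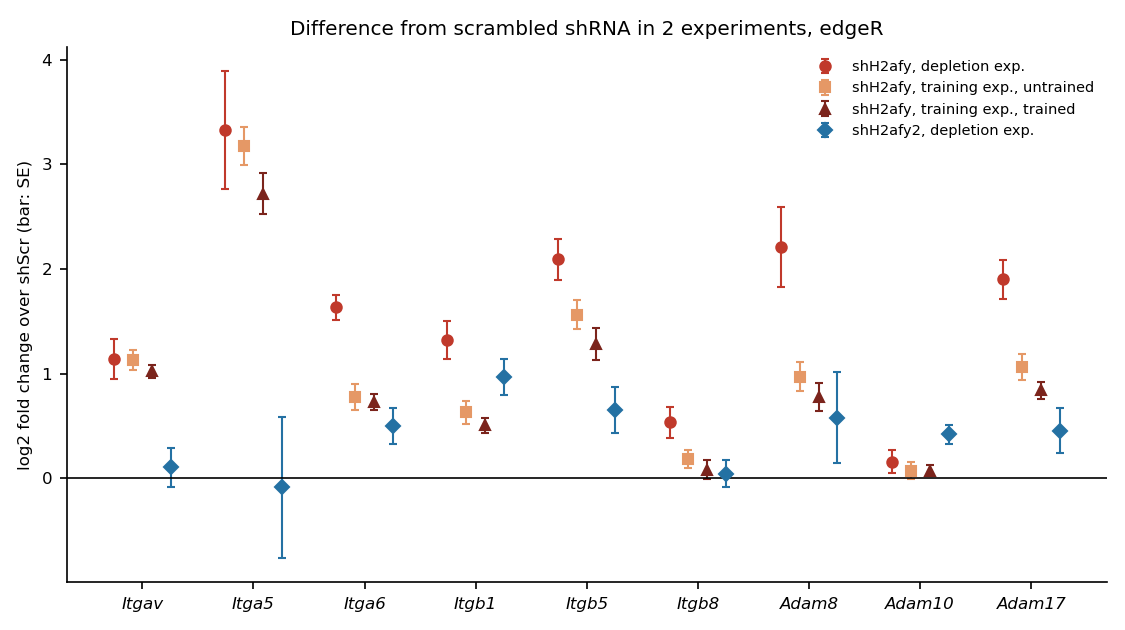
Log2 fold change over shScr (y axis, bars are SE) of the 9 genes (x axis) for shH2afy in the depletion experiment and in untrained and trained mice of the training experiment, and for shH2afy2. Itga5 has the largest shH2afy value in each experiment (2.72 to 3.32) and Adam10 lies near 0 with shH2afy (0.07 to 0.16).

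In untrained mice of that experiment, 25.2% of all genes rose and 43.7% were called in either direction. There 8 of the 15 other alpha chains rose and 2 fell. Itgax (3.63), Itga2 (3.29), Itgae (2.68) and Itgam (2.49) were named by adjusted p. All of Itgb2 (2.59), Itgb7 (2.91) and Itgb3 (1.13) rose. Of the other ADAMs, Adam33 rose and the synaptic ADAMs without protease activity Adam22 (-0.69 ± 0.07), Adam23 (-0.42 ± 0.08) and Adam11 (-0.45 ± 0.16) fell. The call of Adam11 was lost without any 1 shScr library and without shH2afy replicate 2 or 3. Rhbdf1 (1.61), Rhbdf2 (2.65), Timp2 (1.19) and Frmd8, the protein that keeps the rhomboids at the surface (0.80), were among 8 partners and inhibitors that rose, and 1 fell. Tgfb1 (2.22) was among 12 ligands that rose, and 2 fell. Of the adaptors 7 rose and 3 fell, and of the 20 substrates tested 14 rose, Cd44 (3.33) and Trem2 (2.64) among them, and 5 fell.

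Did fear conditioning itself change these genes within 1 h? None of the 9 was called in shScr mice, in mice labelled shH2afy, in the test of the difference between them or in intact mice, by edgeR or by DESeq2. Of all genes, edgeR called 0% in shScr mice, 0% in mice labelled shH2afy, 0% for the difference of the training effects (15997 genes tested) and 0.0959% in intact mice. Where edgeR called 0%, its result does not set the 9 apart. DESeq2 called 211, 37, 0 and 467 genes in all, in the same order. At an unadjusted p below 0.05 there were 2 of the 9 in shScr mice, 0 in mice labelled shH2afy, 0 in the interaction and 1 in intact mice. The shares of all genes at that p were 8.96%, 3.86%, 2.08% and 19.9%, in the same order, and the 1 of 9 in intact mice lies below its share.

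The 2 in shScr mice were both proteases. Adam17 measured 25.1, 26.0 and 24.3 CPM in untrained and 27.3, 32.0 and 28.6 CPM in trained shScr mice, without overlap (log2 fold change 0.21 ± 0.08, adjusted p = 0.49). Adam8 measured 6.69, 6.05 and 5.66 CPM and 8.92, 7.70 and 6.66 CPM, with 1 trained mouse inside the untrained range (0.33 ± 0.13, adjusted p = 0.54). In mice labelled shH2afy their log2 fold changes were 0.01 ± 0.12 and 0.16 ± 0.13, and Adam17 ran from 42.6 to 59.9 CPM untrained and from 49.4 to 55.2 CPM trained. The difference of the training effects was -0.22 ± 0.16 for Adam17, -0.19 ± 0.20 for Adam8 and -0.45 ± 0.27 for Itga5, the largest of the 9. In intact mice Itga6 measured 23.2, 25.5 and 27.0 CPM untrained and 28.7 and 29.5 CPM trained (0.20 ± 0.07, adjusted p = 0.20), and the other 8 genes had log2 fold changes of -0.12 to 0.22.

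**Figure D3:**
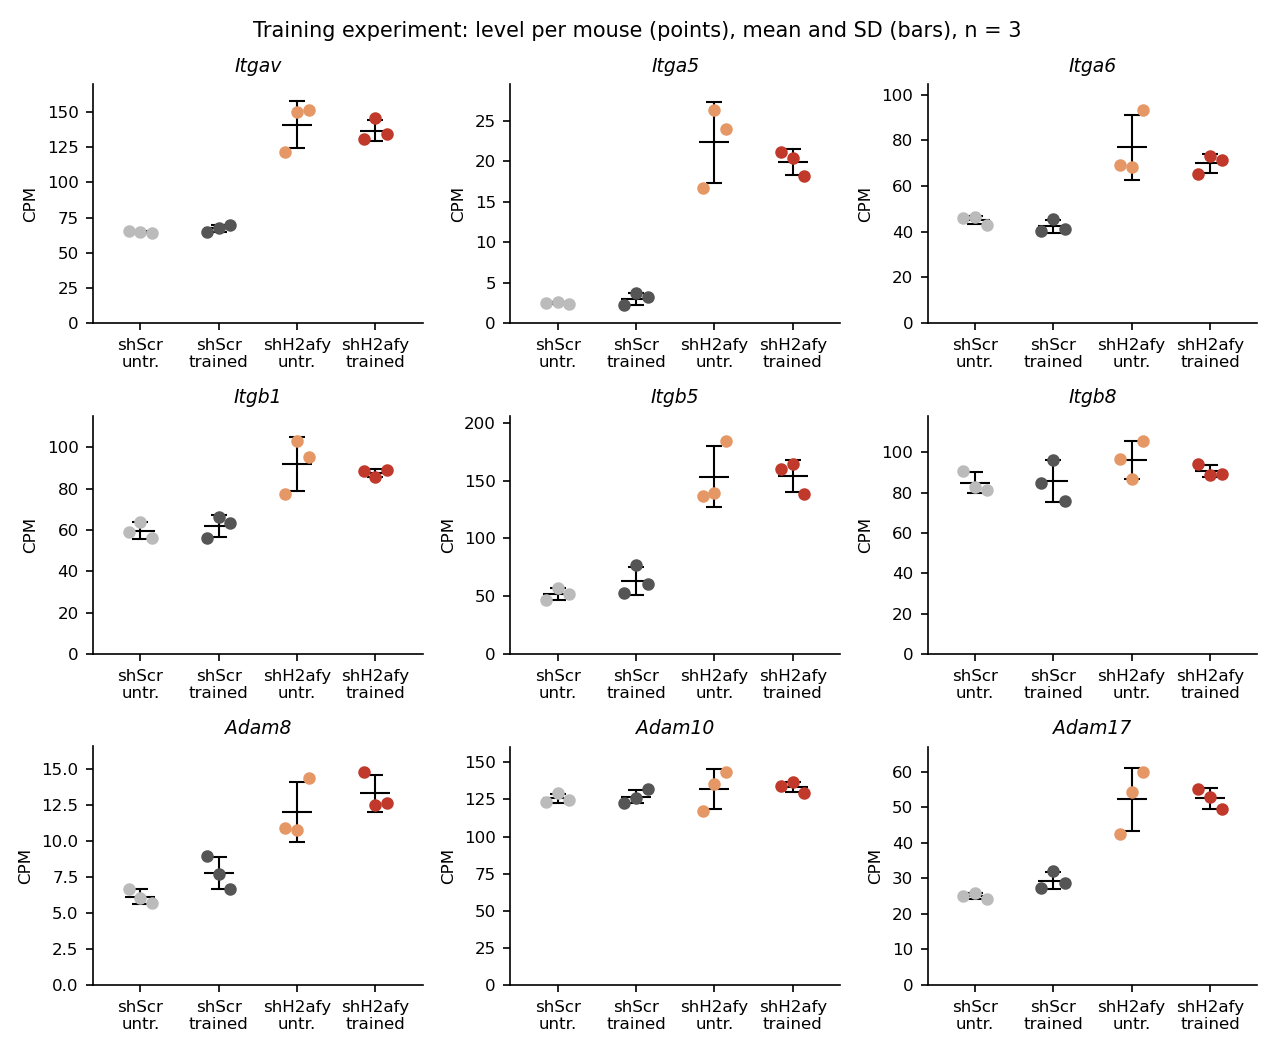
Level of each gene in CPM (y axis, from 0) in the 4 groups of the training experiment (x axis, 3 mice each). Points are mice and lines with bars are the mean and SD. The level differs by virus for 7 genes and the untrained and trained mice of a virus lie side by side, as for Itgav at 65.0 to 69.6 CPM in trained and 63.7 to 65.4 CPM in untrained shScr mice.

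Intact mice gave the levels without virus. Adam10 had 118 to 131 CPM over the 5 mice, Itgav 62.2 to 74.7, Itgb1 54.1 to 58.9, Itgb5 40.5 to 50.9, Itga6 23.2 to 29.5, Itgb8 22.9 to 26.7, Adam17 12.3 to 14.0, Itga5 1.66 to 2.18 and Adam8 0.657 to 1.53 CPM. These libraries were prepared and counted apart from the others, so no test was made between them and mice with virus.

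Likeness to Itgav and Adam8 was read as the Pearson correlation of log2 CPM over the 9 depletion libraries, which share their 3 groups, among 15144 genes with a mean of at least 1 CPM. For Itgav the 5 most alike were Parvb (r = 0.99), a parvin that links integrins to actin, Nek6 (0.99), the matrix protease Adamts5 (0.98), Perm1 (0.98) and Lrrc3 (0.98). For Adam8 they were the interleukin-17 receptor Il17ra (0.99), Atp1b2 (0.99), Col13a1 (0.98), Pml (0.98) and Hdac1 (0.98).

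Histone variant mH2A forms broad domains over genes, and the domain lists of 30 libraries were laid over the 9 loci. Each value is the share of the gene from start to end that lay inside domains called against input at a false discovery rate (FDR) below 0.05. No virus is named for these mice, and the antibodies to mH2A1 and the sequencing differed between time points, so values are compared only within a time point. Of the 4 mH2A1 libraries at 1 h, the 2 untrained ones are labelled with the mH2A2 antibody in another field and were grouped by their titles.

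Coverage of the 9 genes ran from none to most of the gene. By the median over mice, mH2A1 covered most of Itga5 at all 3 time points and most of Itgb5 at 1 h and 6 h, Itga6 was covered in part, and Itgb1 and Adam10 had no domain inside the gene in any of the 30 lists. Of 21938 protein-coding genes, 13.9% had none in any list and 8.52% had one in every list. Itgb5 was covered by mH2A1 over 45.6% at 30 min (median of 5 mice), 81.9% at 1 h (4 mice) and 85.6% at 6 h (10 mice, 77.9 to 90.7%). Its coverage by mH2A2 was 16.4% at 30 min (5 mice) and 30.7% at 1 h (6 mice). Itga5 had medians of 62.1, 69.4 and 76.1% for mH2A1 and, for mH2A2, 0 to 91.1% over the 5 mice at 30 min and a median of 56.8% at 1 h. At 6 h, 24.0% of protein-coding genes had a median mH2A1 coverage of 40% or more, and Itgb5, Itga5 and Itga6 did so too.

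Itga6 had medians of 4.43, 43.4 and 44.7% for mH2A1 at the 3 time points and of 1.77 and 4.08% for mH2A2. Adam8 had its higher medians for mH2A2, at 76.0% at 30 min (0 to 85.3% over 5 mice) and 83.6% at 1 h (58.7 to 100% over 6 mice). For mH2A1 its medians were 20.5% at 30 min and 39.6% at 6 h, and 0% in each of the 4 mice at 1 h. At 30 min both variants came from the same 5 mice, which differed widely at Adam8. There mH2A1 covered 88.3, 79.0 and 0% in the untrained mice and 20.5 and 0% in the trained mice. In the same order, mH2A2 covered 12.2, 85.3 and 76.0% and 77.5 and 0%. Adam17 had mH2A2 over 28.7% at 30 min (24.7 to 46.3%) and mH2A1 over 14.5%, and no mH2A1 domain in the 14 mice of 1 h and 6 h. Itgav had a median of 0 for both variants, with 1.94 and 6.30% for mH2A1 in 2 of the 5 mice at 30 min and 3.64 and 5.33% for mH2A2 in 2. Itgb8 reached at most 6.19%, in 1 mouse.

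**Figure D4:**
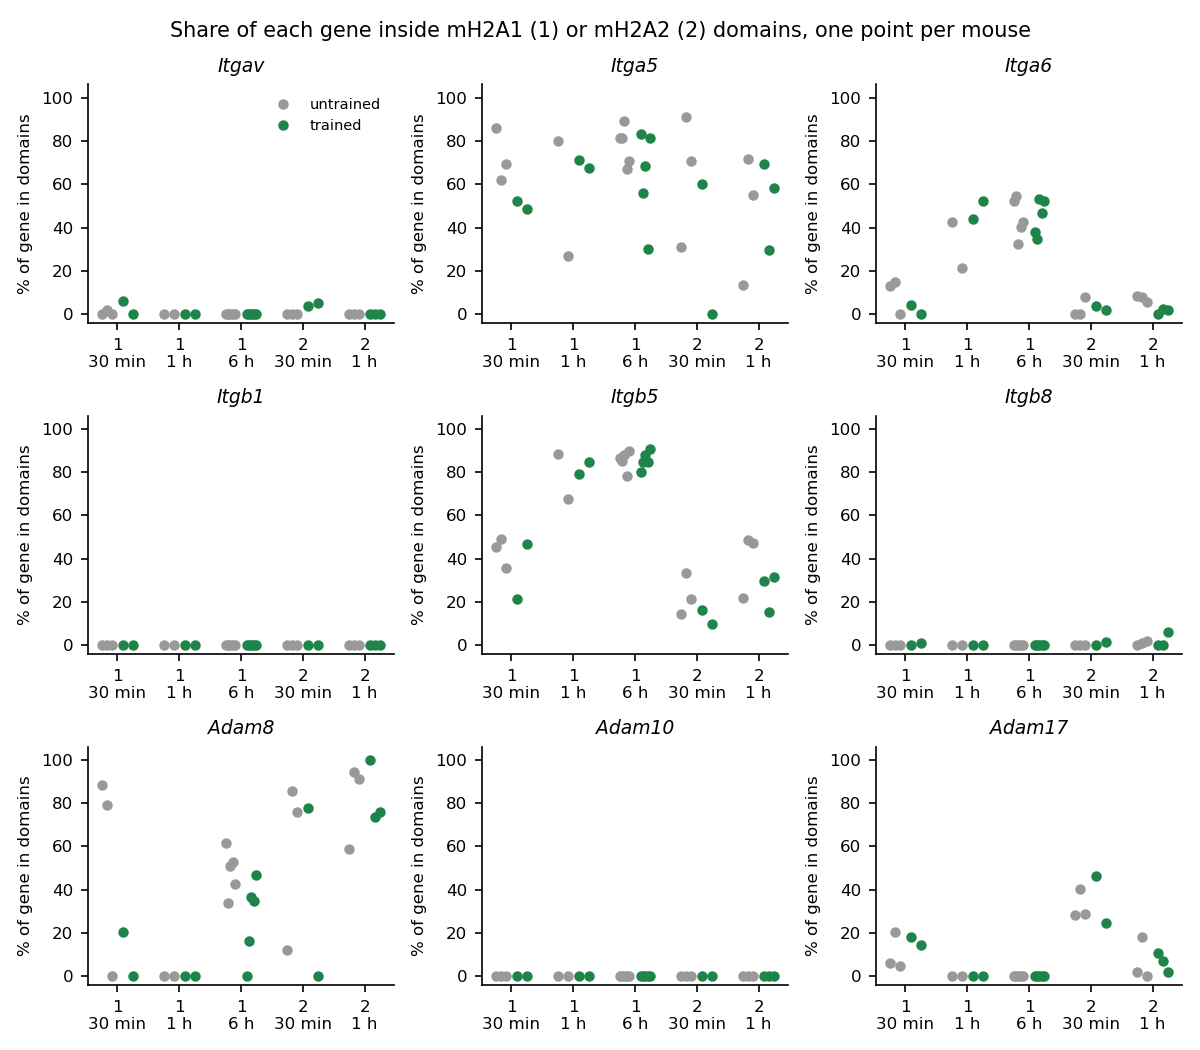
Share of each gene inside domains (y axis, percent) per mouse (points) for mH2A1 and mH2A2 at each time point (x axis), with trained and untrained mice marked. Itgb5 lies at 77.9 to 90.7% for mH2A1 at 6 h, and Itgb1 and Adam10 lie at 0 throughout.

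Rise with shH2afy and coverage by mH2A1 in these other mice can be set side by side. Itgb5 and Itga5, with 85.6 and 76.1% at 6 h, rose 4.26-fold and 10.0-fold. Itga6 and Adam8, with 44.7 and 39.6%, rose 3.10-fold and 4.62-fold. Itgb1, Itgav and Adam17, with 0% at 6 h in all 10 mice, rose 2.49-fold, 2.20-fold and 3.73-fold. Adam10 and Itgb8, also at 0% then, were not called. The order of coverage was another at the other time points. At 30 min the mH2A1 medians were 14.5% for Adam17 and 4.43% for Itga6, and at 1 h Adam8 had 0%. These are values of 9 chosen genes, with no test.

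At 6 h, with 5 trained and 5 untrained mice, coverage could be tested. None of the 4 genes with mH2A1 domains then had a p below 0.05 (exact two-sided permutation test, 252 splits), as 2.44% of 26647 genes did, and no gene passed after adjustment. Adam8 was covered over 0, 16.1, 36.7, 34.9 and 46.7% in the trained mice and over 61.6, 33.7, 51.1, 52.8 and 42.6% in the untrained mice. The groups overlapped, and the means of 26.9 ± 18.6% (SD, n = 5) and 48.4 ± 10.6% differed by -21.5 points (exact permutation p = 0.0556). Without trained replicate 5 that p was 0.0317 and without untrained replicate 2 it was 0.0397. Itga5 had 63.9 ± 21.8% trained and 78.1 ± 8.9% untrained (exact permutation p = 0.246). Itgb5 had 85.5 ± 4.0% and 85.2 ± 4.4% (exact permutation p = 0.905), and Itga6 44.8 ± 8.3% and 44.5 ± 9.0% (exact permutation p = 0.968). The other 5 genes had no domain inside the gene in the 10 mice. Adam10 had mH2A1 over part of the 2 kb before its start, 16.2% on average in trained and 4.08% in untrained mice (exact permutation p = 0.119). At 30 min (3 untrained against 2 trained mice) and for mH2A2 at 1 h (3 against 3), the smallest p that such a test allows is 0.1, so these values are given without one.

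The start sites of Itgb5 and Itga5 were left free in most mice at 6 h, unlike that of Itga6. At 6 h the start of Itgb5 lay outside domains in 10 of 10 mice, although domains stood on either side. They ended 65 to 865 bases before it and began again 536 to 2136 bases after it, a gap of 800 to 2400 bases (median 1300). That gap held the whole GC-rich sequence printed above, except in untrained replicate 5, where a domain ended 65 bases before the start. For Itga5 the start lay outside in 9 of 10 mice, in a gap of 1000 to 3800 bases (median 1600). The start of Itga6 lay inside a domain in 9 of 10 mice. Adam8, with a domain in 9 of 10 mice, had its start inside in 3. Among 4391 protein-coding genes with a median coverage of at least 60%, 11.8% had the start inside in at most 1 mouse and 46.0% in all 10, so Itga5 and Itgb5 belong to the smaller group. At 30 min, with the other antibody, the start of Itga5 was inside mH2A1 domains in 5 of 5 mice and that of Itgb5 in 3 of 5.

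**Figure D5:**
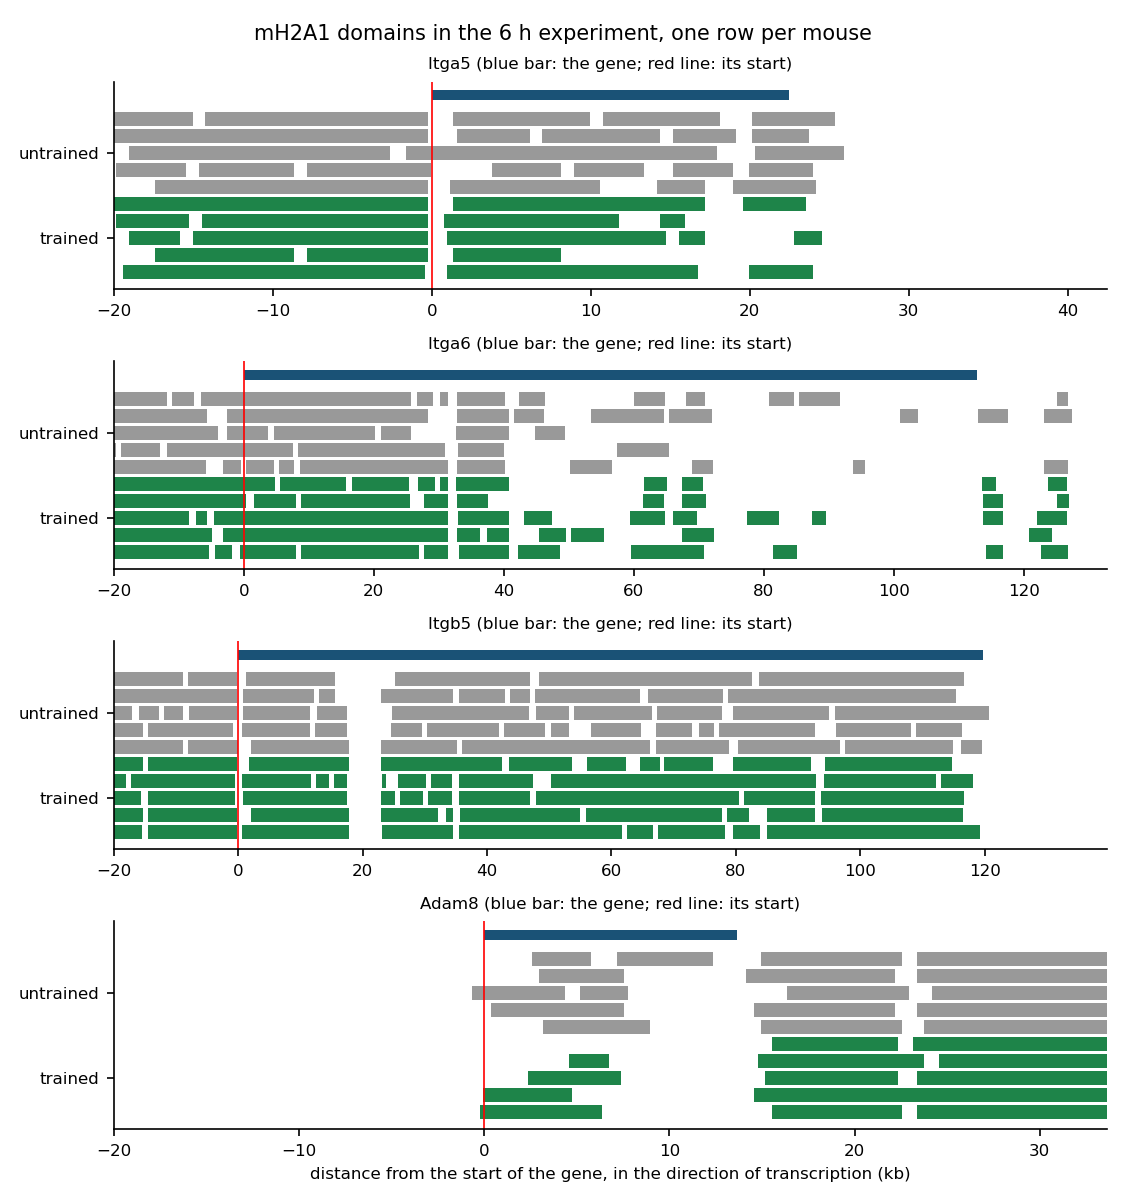
Domains of mH2A1 in the 10 mice at 6 h (1 row of bars per mouse, 5 untrained in grey and 5 trained in green) against the distance from the start of the gene (x axis, kilobases, in the direction of transcription) for the 4 genes with domains, with the gene as a blue bar and its start as a red line. The bars stop at the start of Itgb5 in 10 of 10 mice and of Itga5 in 9 of 10, and run across that of Itga6 in 9 of 10.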

How the data were processed

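The members and the gene lists were chosen with earlier results of these data known. RNA counts per gene, as deposited, are raw. They come from trimmed reads that the authors aligned with STAR (mm10) and assigned with featureCounts. In the training experiment they depleted ribosomal RNA and counted whole transcripts, introns included, so experiments were never pooled. Domains were called by the authors in each ChIP-seq library against its input after Bowtie2 alignment, with epic2 in the methods and SICER in the labels. The p-value, FDR, log2 ratio, score and ChIP and input counts of each domain, as deposited, come from that caller, and only positions and FDR were used here.

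Counts were scaled by TMM, filtered with filterByExpr and tested with the quasi-likelihood test of edgeR 4.0.16 (R 4.3.3) with Benjamini-Hochberg adjustment over all genes tested, on the libraries compared alone (the interaction on all 12). SE is the log2 fold change over the root of F. DESeq2 1.42.0 was an alternative, with its size factors, no filter, a joint fit, a replicate block and leaving out each library. Thresholds followed the study: adjusted p below 0.01 with fold above 2 (depletion), below 0.05 with fold above 1.2 (training with virus) and below 0.01 (intact mice), and 0.05 for the interaction. CPM is relative to the library's total over genes, scaled by its TMM factor over all libraries of the experiment. Coverage was computed in Python 3.11.15 on GENCODE M21 genes and tested at 6 h by exact permutation. The edgeR and DESeq2 fits and the permutation test were tried on simulated data. All 9 genes were named, with up to 4 of each list by smallest p and the 5 genes most alike Itgav and Adam8.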

Additional observations from a re-analysis of the deposited data

Results flagged for a closer look

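In groups of 5 mice at 6 h, 18 measures of the 9 genes had a spread, and in 7 of them 1 mouse stood apart by the 95% limit of the test of Dixon. For continuous values chance reaches that limit in about 1 of 20 groups, but all 7 concern the share of the 2 kb before the start inside mH2A1 domains, which moves in steps of 200 bases with many ties. In 4 of the 7 the other 4 mice had the same value, so that any difference in 1 mouse passes the limit, and the rate of 1 in 20 does not hold. Trained replicate 5 had 78.15% at Itga5, where the other trained mice had 88.15%, 40.0% at Itga6, where the others had 100%, and 11.9% at Adam8, where the next mouse had 1.9%. Untrained replicate 5 had 79.25% at Itga6, where the others had 100%, and 20.2% at Adam10, where the next mouse had 0.2%. Untrained replicate 4 had 56.8% at Itgb5, where the next mouse had 86.8%, and untrained replicate 3 had 31.9% at Adam8, where the others had 0%.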

How the results depend on the processing

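With 3 mice per group, calls at an adjusted p of 0.01 were near what single libraries could undo. In shH2afy against shScr of the depletion experiment, 7 of the 9 genes were called, and leaving out 1 library gave 3 to 7. In shH2afy against shH2afy2, 4 were called, and leaving out 1 library gave 0 to 5. The other alternatives gave 5 to 7 and 4 to 5. In the comparisons of shH2afy2 with shScr and of training, no alternative called any of the 9, and the 7 calls of each virus comparison in the training experiment held throughout. Replicate numbers were not taken as pairs. Same-numbered deviations correlated over 0.1 in 2 of 9 pairs of the depletion experiment, 8 of 18 of the training experiment and 0 of 2 of intact mice. Different-numbered ones did so in 7 of 18, 12 of 36 and 3 of 4. The deviations of the 2 trained intact mice mirror each other, so the counts of intact mice say nothing on pairing. With the replicate block, 5 of the 9 were called in shH2afy against shScr (Itgav and Itga5 were lost), 5 in shH2afy against shH2afy2, 7 in either virus comparison of the training experiment and 0 elsewhere. Over all genes, calls in shH2afy against shScr went from 1885 to 1146 with the replicate block, in shH2afy2 against shScr from 0 to 127 with DESeq2 and 327 with no filter, and in shH2afy against shH2afy2 from 1557 to 2610 with no filter. Training calls went from 0 to 211 in shScr and to 37 in mice labelled shH2afy with DESeq2, to 6 in shScr with all 12 libraries in 1 fit, and in intact mice from 15 to 467 with DESeq2, 51 with no filter and 0 with the replicate block. Leaving out 1 library gave 947 to 2364 calls in shH2afy against shScr, 0 to 2 in shH2afy2 against shScr, 0 to 1 for training in shScr and 1 to 416 in intact mice, with 416 without untrained replicate 2. In shH2afy against shH2afy2 it gave 2 to 2090. Leaving out shH2afy replicate 1 left 2 calls there and leaving out replicate 2 left 631, while dropping replicate 1 or 3 of the shH2afy2 mice left 167 and 70. The cause was not tested. None of the 9 had an exact permutation p below 0.05 for coverage at 6 h, and leaving out 1 mouse gave 0 to 1, which was Adam8. The start lay inside a domain in 17.8% of the pairs of gene and list, in 16.3% with domains under an FDR of 0.001, and in 28.1% when a domain within 1 kb counted.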
